A study of Rattus norvegicus with 12 samples.

Results

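The regions described here are 213 stretches of the rat genome that carried a peak of H4K5ac, acetylation of lysine 5 of histone H4, in both libraries of the condition labelled SIANK and in neither library of the condition labelled NC. They were chosen from 23333 regions made by merging the peaks of 12 CUT&Tag lists wherever peaks overlapped by 1 bp or more. They formed 0.913% of all merged regions and 11.6% of the 1834 merged regions with H4K5ac in any library. Of the 213, 69 had neither H3K23ac nor H3K27ac in any list, and 144 carried H3K23ac or H3K27ac in at least 1 library. The presence of H4K5ac chose these regions, so that presence and the H4K5ac peak lengths at them are given as a description, with no test.

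The series title places the work in aneurysmal aortas, and the libraries came from primary rat (Rattus norvegicus) vascular smooth muscle cells, which give arteries their contractile tone. For H4K5ac, H3K23ac and H3K27ac there were 2 SIANK and 2 NC libraries each. The sources used here spell out neither label and give no agent, dose, time or animal age. In CUT&Tag an antibody to a chromatin mark tethers a transposase that tags the DNA beside the mark. The lists name no genes, so the cell type was not checked against its markers. Nothing in the labels says that numbered libraries came from separate cultures or animals, so differences between them may be technical.

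Acetylation of histone tails weakens their hold on DNA and opens chromatin to the transcription machinery. H4K5ac is carried by newly made histone H4 as it is deposited on DNA and is also found at active promoters and enhancers. H3K27ac is laid down by CBP and its close relative at active enhancers and promoters, and H3K23ac is a mark of open chromatin that the acetyltransferase KAT6A can make.

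The H4K5ac lists were the shortest of the series and differed in length between conditions. They held 468 and 1711 peaks in SIANK libraries 1 and 2, against 100 and 371 peaks in NC libraries 1 and 2. The H3K23ac lists held 14356 and 17141 peaks in SIANK and 12909 and 10720 in NC, and the H3K27ac lists 4823 and 15413 in SIANK and 2644 and 14034 in NC. The lists give positions and lengths only, so the read depth behind a peak, or behind its absence, is unknown. The genome build is not given in the sources used here. Peaks lay beyond the last gene of the GRCr8 annotation on 15 chromosomes, so that annotation was not applied. Positions are printed as listed, and regions are named by position, with no gene and no sequence.

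Membership was limited mainly by SIANK library 1 and by NC library 2. The gained regions held 214 of the SIANK 1 peaks, which is 45.7% of that list, and 215 of the SIANK 2 peaks, which is 12.6%. Just outside the rule lay 119 regions with H4K5ac in both SIANK libraries and in 1 NC library, of which 110 had it in NC 2 and 9 in NC 1. Also just outside lay 59 regions with H4K5ac in SIANK 1 alone and 1173 with it in SIANK 2 alone. In the opposite direction, 2 regions held H4K5ac in NC 1 and NC 2 but in no SIANK library, 0.00857% of all merged regions. Without SIANK library 1 of each mark the gained count was 1386, and without SIANK 2, NC 1 and NC 2 in turn it was 273, 222 and 323. With the lists of a mark held to equal length, which left the 100 longest peaks of each H4K5ac list, 13 regions were gained.

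At every gained region the H4K5ac peaks of both SIANK libraries overlapped each other. The median overlap was 396 bp, and the median distance between the peak centres was 68.5 bp. The centres lay at most 100 bp apart at 131 of the 213 regions. At 131 regions, too, the shorter peak lay wholly inside the longer one. Only 1 region held more than 1 peak in SIANK 1, and 2 regions did so in SIANK 2.

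The H4K5ac peaks were short, and they were longer in SIANK 2. In SIANK 1 the length per region ran from 306 to 1783 bp with a median of 432 bp, and in SIANK 2 it ran from 294 to 2263 bp with a median of 586 bp. Of the 210 regions with exactly 1 peak in each library, 169 (80.5%) had the longer one in SIANK 2, and the median ratio of SIANK 2 to SIANK 1 was 1.26. The same ratio was 1.35 at 117 regions with 1 NC library and 1.40 at 64 regions found in all 4 H4K5ac libraries, so longer peaks in SIANK 2 were also seen outside the gained regions. Lengths of 1 kb or more occurred at 2 gained regions in SIANK 1 and at 23 in SIANK 2.

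Gained regions had shorter H4K5ac peaks than regions that NC libraries shared. Median lengths in SIANK 1 and SIANK 2 were 432 and 586 bp at gained regions, 476 and 728 bp at the 119 regions with 1 NC library, and 677 and 985.5 bp at the 68 regions found in all 4 libraries. Peaks found in 1 SIANK library alone were shorter still, with medians of 361 bp in SIANK 1 and 421 bp in SIANK 2. These lengths come from the lists that fixed membership and describe the order without testing it.

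**Figure D1:**
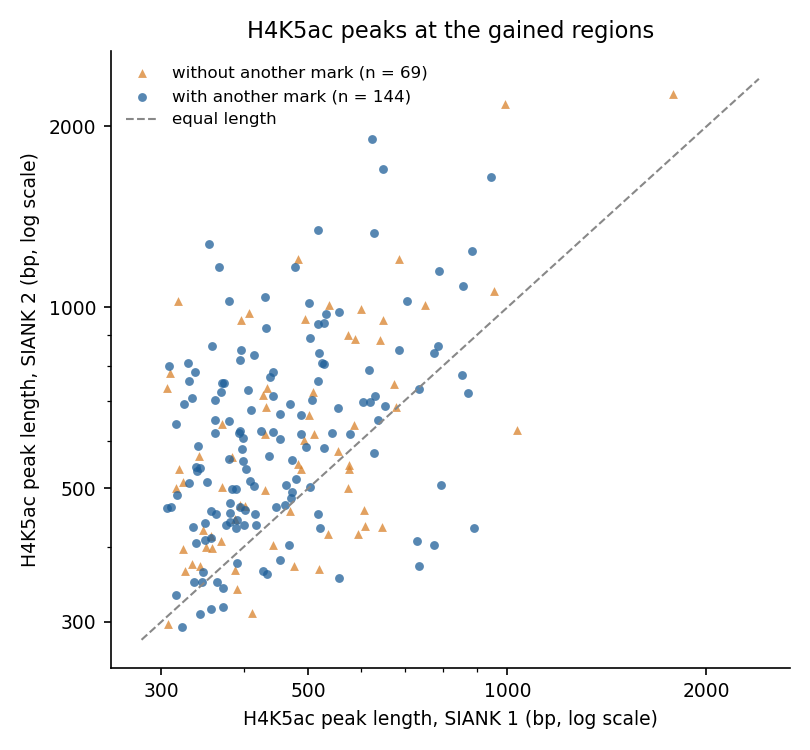
H4K5ac peak length in SIANK 2 (vertical axis, bp, log scale) against SIANK 1 (horizontal axis, bp, log scale) at the 213 gained regions, 1 point a region, with triangles for the 69 regions without another mark and circles for the 144 with one. Of the 210 regions with 1 peak in each library, 169 had the longer peak in SIANK 2, and triangles and circles overlap over most of the range, with the longest peaks at triangles.

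Regions without H3K23ac or H3K27ac had H4K5ac peaks of much the same length as regions with them. In SIANK 1 the median was 469 bp at the 69 regions without another mark and 420.5 bp at the 144 regions with one. In SIANK 2 the order was the opposite, with 549 bp without and 610.5 bp with another mark. The log2 ratio of medians, without over with, was 0.16 in SIANK 1 and −0.15 in SIANK 2, so its direction differed between the 2 libraries. The middle 50% of lengths overlapped widely, at 370 to 577 bp without and 366 to 522 bp with another mark in SIANK 1. In SIANK 2 it spanned 427 to 747 bp without and 457 to 775 bp with another mark.

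The merged regions themselves did differ in length between the classes, by construction. Their median was 655 bp without another mark and 1021.5 bp with one, where peaks of the other marks widen the region. The ranges were 369 to 2263 bp without and 452 to 7431 bp with another mark, and 12 regions without and 77 with another mark reached 1 kb.

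Nearly every gained region that carried 1 of the other marks carried both. H3K23ac and H3K27ac were both found at 137 regions (64.3%), and H3K23ac without H3K27ac at 7 (3.29%). H3K27ac without H3K23ac was found at 0 (exact 95% binomial interval up to 1.72%). Among the 1621 H4K5ac regions that were not gained, these shares were 64.5%, 6.72% and 2.65%. The share with neither other mark was 32.4% at gained regions (exact 95% binomial interval 26.2 to 39.1) and 26.2% at those not gained (24.03 to 28.4). Such intervals cover counting error over regions only, and the difference was not tested over libraries, since the regions were chosen with these lists known.

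Among regions with H4K5ac in both SIANK libraries, those that NC libraries shared carried another mark at a higher share. No other mark was found at 30.5% of the 59 regions of SIANK 1 alone and at 26.9% of the 1173 regions of SIANK 2 alone. It was missing at 19.3% (12.7 to 27.6) of the 119 regions with both SIANK libraries and 1 NC library, and at 17.6% (9.47 to 28.8) of the 68 regions in all 4 libraries. The interval of the gained regions, 26.2 to 39.1, overlaps both of these. Presence in NC alone did not go with more of the other marks, as 37.5% of the 64 regions with H4K5ac in NC 2 alone had none.

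**Figure D2:**
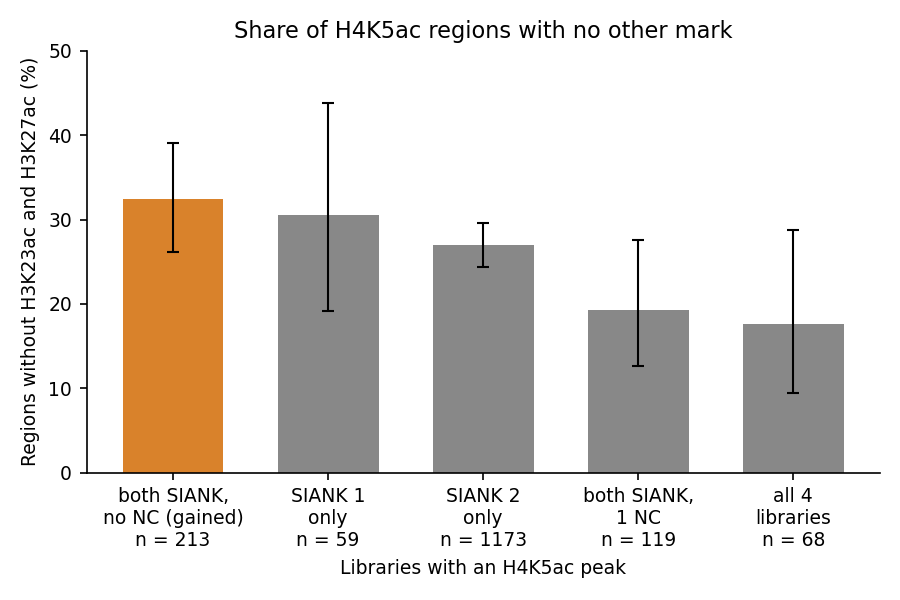
Percent of H4K5ac regions with no H3K23ac and no H3K27ac peak in any library (vertical axis), by the libraries that held the H4K5ac peak (horizontal axis), with exact 95% binomial intervals over regions. The gained regions, at 32.4%, had the highest of the 5 bars and those in all 4 libraries, at 17.6%, the lowest, with overlapping intervals.

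The longest gained H4K5ac peaks belonged to regions without another mark. Regions were ranked by the lower of their peak-length percentiles in the 2 SIANK lists. The region ranked highest, at 146384249 to 146386511 of chromosome 3, had H4K5ac peaks of 1783 bp in SIANK 1 and 2263 bp in SIANK 2, and its nearest other merged region was 20.2 kb away. Ranked next, the region at 148150057 to 148152238 of chromosome 4 had peaks of 991 and 2182 bp, more unequal than at the first. That at 138071172 to 138072234 of chromosome 6 had peaks of 954 and 1063 bp. A merged region that held an NC H4K5ac peak lay 12.5 kb from it.

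The rest of the 10 longest regions without another mark stood on chromosomes 2, 5, 8, 14, 15 and 18. At 167795245 to 167796577 of chromosome 5 the SIANK peaks measured 687 and 1205 bp. At 89548830 to 89549576 of chromosome 15 they measured 674 and 747 bp, with no other merged region within 100 kb, and the nearest at 141 kb. A region at 58185718 to 58186651 of chromosome 18, with peaks of 641 and 882 bp, was likewise 139 kb from its nearest neighbour. At the other end of the ranking, the region at 32022589 to 32023048 of chromosome 4 had peaks of 307 and 298 bp, close to the shortest that either list holds.

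Among regions with another mark, 8 of the 10 top-ranked by H4K5ac peak length had H3K23ac in all 4 libraries. Of all 144 such regions 81 had it in all 4, and the difference was not tested. Highest among them, the region at 103374807 to 103376363 of chromosome 10 had H4K5ac peaks of 884 and 1240 bp in SIANK 1 and SIANK 2. Its H3K23ac peaks measured 1126 and 1447 bp in the SIANK libraries and 1348 and 1368 bp in the NC libraries, so the 2 conditions were alike in that mark there. H3K27ac was found there in the number 2 libraries only, with 1504 bp in SIANK and 1304 bp in NC.

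On chromosome 19, the region at 56270861 to 56272880 had H4K5ac peaks of 788 and 1148 bp and carried both other marks in all 8 of their libraries. H3K23ac peaks there measured 1451 and 2020 bp in SIANK and 1518 and 1750 bp in NC. H3K27ac peaks there measured 853 and 1690 bp in SIANK and 592 and 1680 bp in NC. The lengths followed the library number more than the condition for H3K27ac.

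The longest gained region of all was a broad acetylated domain at 20482126 to 20489556 of chromosome 16, 7431 bp long. Its H3K23ac peaks covered 5573 and 6333 bp in SIANK and 7431 and 3065 bp in NC, and its H3K27ac peaks 1630 and 5218 bp in SIANK and 1398 and 6255 bp in NC. H4K5ac took up a small part of it, with 625 bp in SIANK 1 and 1905 bp in SIANK 2. By contrast, the region at 27841857 to 27842702 of chromosome 4 had H4K5ac peaks of 775 and 839 bp and only an H3K23ac peak of 392 bp in SIANK 2. Of the 10 top-ranked regions with another mark, it was the only one with neither mark in an NC library.

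H3K23ac was found at more gained regions in SIANK libraries than in NC libraries, by a small margin. Peaks of it lay at 110 and 138 of the 213 regions in SIANK 1 and SIANK 2, against 97 and 108 in NC 1 and NC 2. The SIANK counts lay above both NC counts, with means of 124 ± 19.8 in SIANK and 102.5 ± 7.78 in NC (SD, n = 2 each). The log2 ratio of SIANK to NC was 0.27 (SE 0.18), against 0.43 (SE 0.20) over all 23333 merged regions, so the excess at gained regions did not exceed that over all merged regions. Without SIANK 2 of each mark, with gained regions chosen anew, the log2 ratio was 0.046. No p-value is given, since the regions were chosen with these results known.

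H3K27ac followed the library number at gained regions. It was found at 38 and 130 regions in SIANK 1 and SIANK 2, against 21 and 122 in NC 1 and NC 2. The spread within a condition was far larger than the difference between conditions, with means of 84 ± 65.1 in SIANK and 71.5 ± 71.4 in NC (SD, n = 2 each). SIANK over NC was 1.81 within number 1 and 1.07 within number 2, and over all merged regions these ratios were 1.82 and 1.11. The log2 ratio over both numbers was 0.47 (SE 1.55), and it turned to −0.43 without SIANK 2 and −0.80 without NC 1. For H3K23ac the ratios within number 1 and number 2 were 1.13 and 1.28 at gained regions and 1.10 and 1.64 over all merged regions.

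As shares, H3K23ac marked 51.6% and 64.8% of gained regions in SIANK 1 and SIANK 2, and 45.5% and 50.7% in NC 1 and NC 2. At the H4K5ac regions that were not gained it marked 55.2% and 67.2% in SIANK and 52.7% and 52.4% in NC. Over all merged regions it marked 57.8% and 71.3% in SIANK and 52.5% and 43.4% in NC. Gained regions thus lay below the share of all merged regions in SIANK 1, SIANK 2 and NC 1 and above it in NC 2. H3K27ac marked 17.8% and 61.0% of gained regions in SIANK and 9.86% and 57.3% in NC, against 21.04% and 63.4% in SIANK and 12.1% and 59.8% in NC at those not gained. Over all merged regions H3K27ac marked 20.1% and 63.4% in SIANK and 11.1% and 57.1% in NC. In each of the 8 libraries the share was lower at gained regions than at those not gained, a difference that was not tested. A region with neither mark lacks a peak in all 8 libraries. Such regions made up 32.4% of gained regions and 26.2% of those not gained, so the 8 comparisons are not independent.

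**Figure D3:**
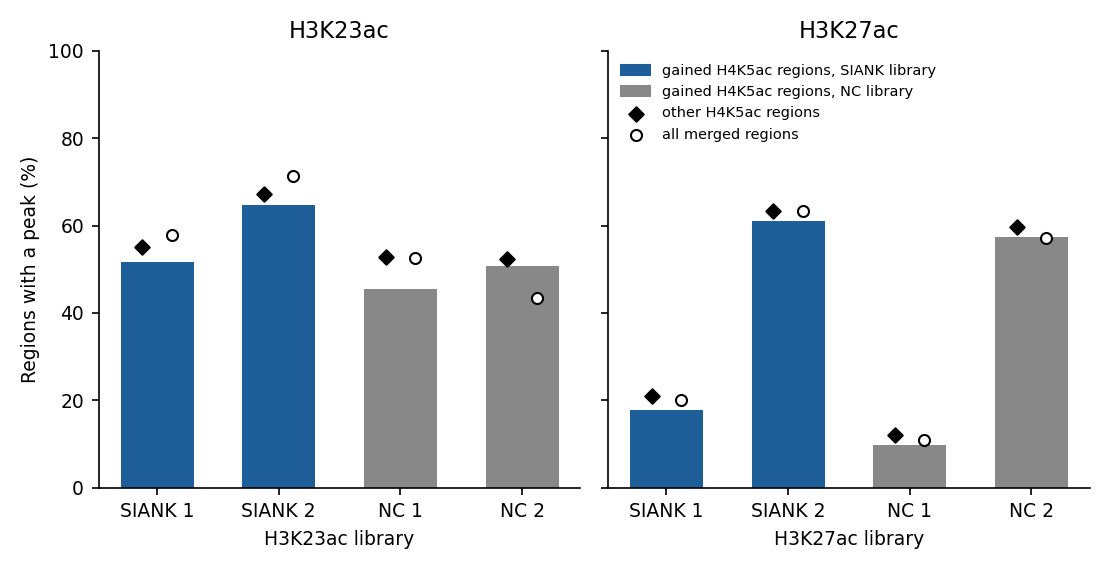
Percent of the 213 gained H4K5ac regions with an H3K23ac peak (left) or H3K27ac peak (right) in each library, as bars, beside the same percent at the 1621 H4K5ac regions not gained (diamonds) and at all 23333 merged regions (open circles). Bars lie just below the diamonds in all 8 libraries, and H3K27ac is high in the number 2 libraries of both conditions. Regions with neither mark count as lacking a peak in all 8 libraries, so the 8 comparisons are not independent.

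Peaks of the other marks at gained regions were slightly longer in SIANK, within the spread. At 70 gained regions with exactly 1 H3K23ac peak in each library, the geometric mean length was 822 and 1074 bp in SIANK 1 and SIANK 2, against 829 and 847 bp in NC 1 and NC 2. The difference came from SIANK 2 alone, and the log2 ratio was 0.17 (SE 0.19). Over the 6187 such regions of the whole series it was 0.27 (SE 0.18). At 17 gained regions the H3K27ac lengths were 792 and 1097 bp in SIANK and 630 and 1064 bp in NC, a log2 ratio of 0.19 (SE 0.45).

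The most frequent pattern of the other marks at gained regions was H3K23ac in all 4 libraries with H3K27ac in both number 2 libraries and in neither number 1 library. It was seen at 47 regions (22.1%), against 24.2% of the H4K5ac regions not gained. All 8 libraries of the other marks were present at 20 regions (9.39%, against 10.2%), and H3K23ac was present in all 4 libraries at 81 (38.0%, against 42.7%). In all, 132 of the 213 regions (62.0%) had H3K23ac or H3K27ac in 1 or more NC libraries. That combined share was not computed for other regions, so it is not a trait particular to gained ones. A peak of H3K27ac in NC 2 was found at 59.8% of H4K5ac regions not gained and at 57.1% of all merged regions. For H3K23ac in NC 1 these shares were 52.7% and 52.5%. At 1 gained region another mark was found in NC only. That region, at 127565279 to 127566253 of chromosome 5, had an H3K23ac peak of 459 bp in NC 2 beside H4K5ac peaks of 532 and 975 bp.

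H3K23ac was itself present in both SIANK libraries and neither NC library at 11 gained H4K5ac regions (5.16%, exact 95% interval 2.61 to 9.05), against 4.13% of the H4K5ac regions not gained and 6.66% of all merged regions. Both of these lie within the interval, which covers counting error over regions only, and the differences were not tested. H3K27ac was gained at 0 of the 213 (exact 95% interval up to 1.72%), where 0.617% of all merged regions gained it. In the opposite direction, H3K23ac was present in both NC and neither SIANK library at 1 gained H4K5ac region (0.469%, 0.0119 to 2.59). It was so at 0.308% of the H4K5ac regions not gained and 0.0857% of all merged regions. H3K27ac had this pattern at 0 gained H4K5ac regions, against 0.0429% of all merged regions.

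At the 11 regions that gained both H4K5ac and H3K23ac, H4K5ac peaks measured 316 to 736 bp in SIANK 1 and 333 to 1169 bp in SIANK 2. Their H3K23ac peaks measured 347 to 936 bp in SIANK 1 and 367 to 926 bp in SIANK 2. The region at 50167878 to 50168942 of chromosome 13 had H4K5ac peaks of 519 and 840 bp and H3K23ac peaks of 887 and 814 bp in SIANK 1 and SIANK 2. It also had H3K27ac peaks of 700 bp in SIANK 2 and 514 bp in NC 2. The region at 47305357 to 47306312 of chromosome 1 had H4K5ac peaks of 736 and 372 bp and H3K23ac peaks of 601 and 661 bp, with H3K27ac of 909 bp in SIANK 2 and in no other library. It was the only 1 of the 11 without any NC peak of the 3 marks. These 2 regions were picked after their values had been seen.

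Where another mark was present, it usually covered most of the H4K5ac peaks and reached beyond them. At all 144 such regions a peak of another mark overlapped a SIANK H4K5ac peak itself, which the merging rule requires. At 98 (68.1%) the other marks covered the SIANK H4K5ac peaks in full. H4K5ac in turn covered a median of 63.3% of the bases under the other marks, with a middle 50% of 47.3 to 81.2%. The exceptions were 4 regions where the other marks covered less than 50% of H4K5ac, and 11 where H4K5ac covered the other marks in full. At regions with H4K5ac in all 4 libraries the median was 77.7%, and full cover of H4K5ac was seen at 44.6% of 56. At regions with H4K5ac in 1 SIANK library alone the values were 40.6% and 81.3% of 898. Gained regions lay between those groups in both values, as their H4K5ac lengths did. H4K5ac was pooled over the SIANK libraries, and the other marks over all 8 of their libraries, NC among them. Regions with 1 SIANK library have H4K5ac from that library only, so the place of that group was in part set by the measure.

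Where a SIANK library held both marks at a gained region, the centre of the H4K5ac peak mostly lay inside an H3K23ac peak. The median distance between centres was 159.5 bp for 111 H4K5ac peaks in SIANK 1 and 111 bp for 140 in SIANK 2. The H4K5ac centre fell inside an H3K23ac peak at 90.1% of these in SIANK 1 and 95.7% in SIANK 2. H3K23ac was the longer peak in 90.1% and 76.4%, with medians of 788 and 891 bp against 414 and 597 bp for H4K5ac. For H3K27ac the centre distances were 151.5 and 116.75 bp, and the H4K5ac centre was inside its peak in 82.1% of 39 and 96.2% of 132.

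Few gained regions lay within 100 kb of another, and these distances were not compared with those of a random spread. The distance from a gained region to the nearest other gained region had a median of 2.70 Mb, a middle 50% of 1.32 to 8.67 Mb and a maximum of 54.1 Mb. Only 8 regions, in 4 pairs, lay within 10 kb of another, 14 within 100 kb in 7 pairs, and 35 within 1 Mb, where the largest group held 3. By class, the median was 2.43 Mb for regions without another mark and 2.92 Mb for those with one, measured to the nearest gained region of either class. The log2 ratio of these medians, −0.26, turned to 0.05 without SIANK 1 and was 0.00 without SIANK 2. It was −0.81 with H4K5ac peaks at or above the pooled median length and −0.61 when peaks had to cover at least 25% of the region, so its size varied widely with the setting. The chromosome Y region has no other gained region on its chromosome and is left out of these distances.

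The closest pair was on chromosome 14, where regions from 11420113 to 11421496 and from 11423499 to 11424556 lay 2002 bp apart. The first carried H3K23ac in both SIANK libraries and H3K27ac in both number 2 libraries, and the second carried neither. Their H4K5ac peaks measured 478 and 1169 bp at the first and 648 and 953 bp at the second. No other merged region lay within 162 kb, so this pair stood alone.

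The next pair, at 18819243 to 18820253 of chromosome 2 and from 18823834 to 18824787, flanked a region with H4K5ac in all 4 libraries. That region ran from 18820751 to 18822512, at 497 bp from the one and 1321 bp from the other. Both flanking regions lacked the other marks, and their H4K5ac peaks measured 750 and 1011 bp and 396 and 954 bp. They counted as gained because no NC H4K5ac peak reached them, while the region between them held NC H4K5ac peaks. Another pair, on chromosome X, from 106172204 to 106172801 and from 106178905 to 106180262, lay 6103 bp apart and carried both other marks. Between them lay a region from 106175923 to 106176309 with H4K5ac in SIANK 2 and in no other library. Regions from 106167133 to 106167537 and from 106168383 to 106168753, also near, likewise had H4K5ac in SIANK 2 only.

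NC H4K5ac was seldom near. The nearest merged region with an NC H4K5ac peak lay a median of 1.67 Mb away, and within 10 kb at 6 of the 213 regions and within 100 kb at 21. By class the median was 1.86 Mb without and 1.55 Mb with another mark. These distances were measured to lists of only 100 and 371 NC peaks.

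Regions without another mark stood farther, by their median, from other acetylated regions than regions with one. The nearest merged region that was not gained lay a median of 26.3 kb away for the 69 regions without another mark and 12.2 kb for the 144 with one. It was within 10 kb at 24.6% of the regions without and 42.4% of those with another mark, and within 100 kb at 76.8% and 93.8%. The number of other merged regions centred within 100 kb on either side had a median of 2 without and 4 with another mark, against 5 for all merged regions. None was found within that distance at 15 of the 69 regions without (21.7%) and 8 of the 144 with another mark (5.56%).

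A like contrast in median distance was seen at H4K5ac regions that were not gained. Measured to the nearest merged region of any kind, the median distance was 24.1 kb at gained regions without another mark and 11.96 kb at those with one. At regions not gained it was 27.9 kb without and 11.9 kb with another mark. The share with no other merged region centred within 100 kb differed less there, at 13.7% without and 9.02% with another mark. At gained regions it was 21.7% and 5.56%, and over all merged regions 7.33%. None of these differences was tested. The nearest region carried H3K23ac, H3K27ac or both and no H4K5ac at 57 of the 69 gained regions without another mark and at 124 of the 144 with one.

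The most isolated gained regions were on chromosomes 1 and 3. The region at 97993210 to 97994202 of chromosome 3 was 896 kb from its nearest merged region, with H4K5ac peaks of 369 and 724 bp and both other marks in SIANK and NC libraries. Next, the region at 161152247 to 161152901 of chromosome 1 was 839.6 kb away from any other, had H4K5ac peaks of 430 and 616 bp and carried no other mark. That at 107142459 to 107142923 of chromosome 3 was 614 kb away, with H4K5ac peaks of 447 and 465 bp.

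**Figure D4:**
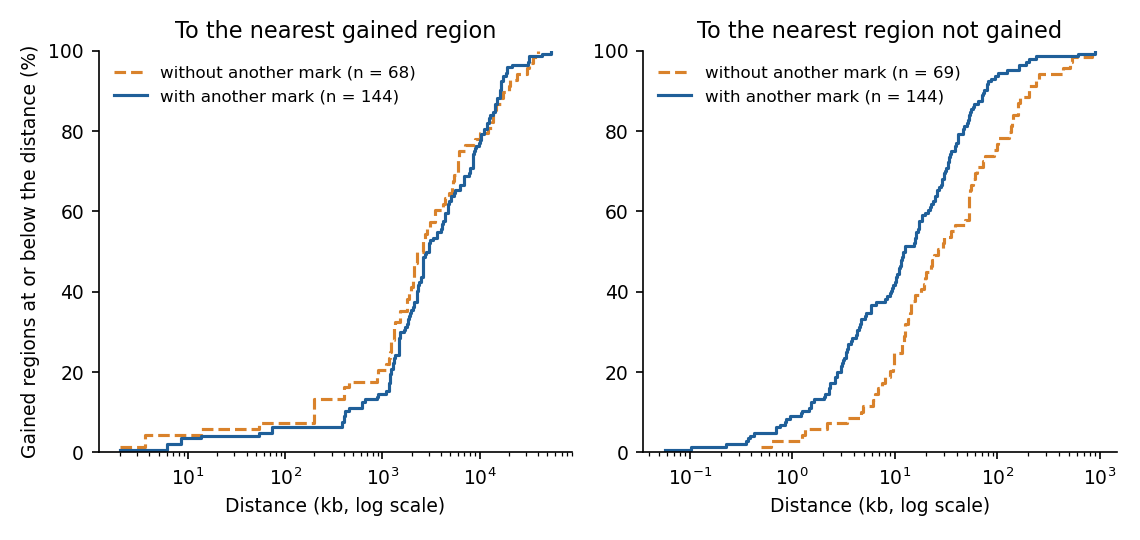
Cumulative percent of gained H4K5ac regions (vertical axis) by distance in kb (horizontal axis, log scale) to the nearest other gained region (left) and to the nearest merged region that is not gained (right), with a dashed line for regions without another mark and a solid line for those with one. The 2 lines run together on the left, with medians of 2.43 and 2.92 Mb, and apart on the right, with medians of 26.3 and 12.2 kb.

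Gained regions were spread over all 22 chromosomes in the lists, 1 to 20, X and Y. Chromosome 1 held the most, 33 (15.5% of the 213, against 11.1% of all merged regions and 11.6% of all H4K5ac regions), and chromosome Y the fewest, 1. Chromosomes 1 to 5 together held 90 (42.3%, against 38.4% of merged and 39.4% of H4K5ac regions). Per 10 Mb, with chromosome length taken as the last peak end, there were 0.768 gained regions over the genome and 1.17 on chromosome 1. Across the 22 chromosomes the count of gained regions was correlated with that of merged regions (Spearman rho 0.74) and of H4K5ac regions (rho 0.79). Gained regions are part of both counts, and the correlations describe the lists without a test.

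By chromosome, gained regions were a small and variable share of merged regions. The highest share outside chromosome Y was on chromosome 18, with 9 of 644 regions (1.40%, exact 95% interval 0.641 to 2.64). Chromosome 20 had 9 of 698 (1.29%) and chromosome 1 had 33 of 2599 (1.27%, 0.876 to 1.78). The lowest were chromosome 14 with 4 of 834 (0.480%, 0.131 to 1.22), chromosome 9 with 5 of 890 (0.562%) and chromosome 10 with 11 of 1938 (0.568%, 0.284 to 1.01). Each of these intervals that is printed includes the genome-wide 0.913%.

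Of all H4K5ac regions on a chromosome, gained ones made up from 4.94% on chromosome 14 to 17.4% on chromosome X, leaving aside chromosome Y, against 11.6% over the genome. Chromosome 10, rich in merged regions, was near that value at 10.3%, and it held 8.31% of all merged regions but 5.83% of H4K5ac regions. On chromosome Y the lists held 5 merged regions, 1 of them with H4K5ac. This region, from 764860 to 765304, was gained, with peaks of 388 and 445 bp and no other mark.

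The classes were mixed on most chromosomes. Regions without another mark were found on 21 of the 22 chromosomes and so were regions with one. Chromosome 12 held 6 gained regions, all with another mark. Chromosomes 5, 15 and 16 had equal numbers in both classes, 7 of 14, 4 of 8 and 4 of 8. Along the chromosomes, cut into 5 equal parts from position 1 to the last peak end, the parts held 45, 26, 46, 47 and 49 gained regions. The 69 regions without another mark fell 18, 6, 17, 9 and 19 to these parts and the 144 with one fell 27, 20, 29, 38 and 30. Of all merged regions the parts held 18.2%, 16.2%, 16.4%, 23.01% and 26.1%.

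**Figure D5:**
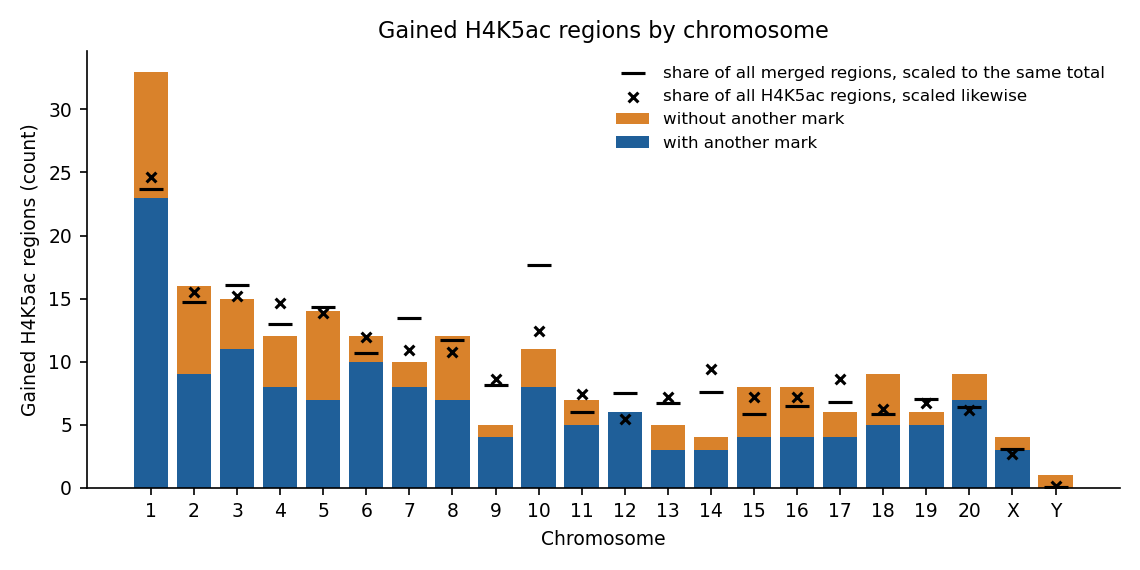
Number of gained H4K5ac regions (vertical axis) on each chromosome (horizontal axis), stacked by class, with short lines for each chromosome's share of all 23333 merged regions and crosses for its share of all 1834 H4K5ac regions, both scaled to a total of 213. Chromosome 1, with 33, stands above both marks, and chromosomes 10 and 14, with 11 and 4, lie below both.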

How the data were processed

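CUT&Tag for H4K5ac, H3K23ac and H3K27ac gave 12 peak lists, which the authors deposited, 1 per library. Per the file headers, each list gives chromosome, start, end and length in bp. Listed lengths count both end positions, so coordinates start at 1. The deposited lists hold no score or read count, so depth is unknown. BWA and deepTools are named, with no version or step, per the submitters' processing notes. Peak caller, cutoff, genome build and use of the IgG that the labels' protocol mentions: not given in the sources used here. Groups came from the treatment label and numbers from the titles. Peaks of all lists were merged where they overlapped by 1 bp or more, which matched bedtools 2.31.1 in all 23333 regions, and the counting was tested on simulated lists. A region has a mark in a library if a peak of it lies there. The members, the split and the rules were chosen with earlier results of these data known. Regions named were, per class, the 10 longest and 3 shortest by the lower H4K5ac length percentile, the 5 with most other-mark libraries, the 3 closest pairs, the 3 most isolated, and the chromosomes with the highest and lowest shares. The text gives a selection of them. No test was run, because membership came from the readout and regions are not replicates. Intervals are exact (Clopper-Pearson, 95%). Software was scipy 1.17.1 and pandas 2.3.3 under Python 3.11.15, with figures by matplotlib 3.10.9.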

Additional observations from a re-analysis of the deposited data

How the results depend on the processing

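No paired analysis was possible because none of these results comes from a test to which a block could be added, and the SIANK over NC ratios within a library number stand as values only. Of 71 values under alternatives, 59 stayed within set limits and 12 moved further. The limits were 1.5 times the reported count or ratio, the interval of a share, or the spread between libraries. For H3K27ac that spread was so wide that −0.43, −0.80 and 1.68 counted as within it, against 0.47 as reported. Requiring the other mark's peak to overlap a SIANK H4K5ac peak could not change the share without another mark, by the merging rule. The 59 are therefore not a measure of stability. Leaving out 1 library number of 1 condition, the gained count ran from 222 to 1386, the percent without another mark from 28.5 to 39.6 and the percent on chromosome 1 from 11.98 to 15.8. The log2 ratios ran likewise from −0.12 to 0.09 for length and from −0.22 to 0.05 for spacing (both without over with another mark), from 0.046 to 0.36 for H3K23ac (SIANK over NC) and from −0.80 to 1.68 for H3K27ac. With H4K5ac peaks at or above their pooled median length, 120 regions were gained, 10.8% of them on chromosome 1. With lists of equal length 13 were gained, 23.1% of them on chromosome 1, with log2 ratios of 0.38 for length and 0 for H3K23ac, and spacing could not be computed. Merged-region length in place of peak length gave −0.64. Distance to the nearest merged region that was not gained, in place of the nearest gained one, gave 1.10. The cause of these moves was not tested, except that shorter lists hold fewer regions by construction. Merging within 1000 bp, or merging the H4K5ac lists alone, left 213 gained regions and 69 without another mark. Unknown depth limits every absence.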
